A study of Mus musculus with 12 samples.

Results

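Genes of amino acid catabolism and the urea cycle were examined in the livers of mice with or without a mammary tumour and with or without Mtdh. The 40 genes were taken from a list of known enzymes and a carrier by matching each symbol to the gene names of the deposited table, and all 40 were found among its 22557 genes. RNA sequencing was carried out on whole liver of 12 female mice of matched age, 3 different mice a group, from tissue that was frozen, ground to powder and depleted of ribosomal RNA. KO_tumor mice carried a knockout of Mtdh and a Py8119 mammary tumour, WT_tumor mice were wild type with such a tumour, KO_no_tumor mice carried the knockout without a tumour, and WT_no_tumor mice had neither. The Py8119 line derives from a mouse mammary carcinoma, and the product of Mtdh, metadherin, is best known from work on cancer. The labels name neither the mouse strain nor how the knockout was made or in which cells it acts, so the 4 groups are described here by genotype and tumour alone.

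The liver breaks down most amino acids, and it is the organ that turns the ammonia they release into urea. Ammonia enters the urea cycle in the mitochondria of hepatocytes, above all of those around the portal vein, and leaves it in the cytosol as urea. The carbon skeletons of tyrosine, tryptophan, histidine, proline, serine, methionine, lysine and the branched-chain amino acids pass through routes of their own, many of which are known to respond to glucagon, glucocorticoids and dietary protein.

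Values are normalized reads, that is, reads divided by a size factor for each library by the authors. Log2 fold changes were fitted with limma on log2(value + 1), which understates the change of low genes. They are given with their standard error (SE) and called where the Benjamini-Hochberg adjusted p over all 17380 genes tested is under 0.05. KO_tumor replicate 1 and KO_no_tumor replicate 3 stood apart in composition or depth. The estimated depth was 12700000 reads in KO_tumor replicate 1, against 25700000 to 43000000 in the other 11 libraries. KO_no_tumor replicate 3 held 5.32% of its signal in small nuclear RNAs and 83.7% in protein-coding genes. Mtdh itself lay between 323 and 1060 in the 6 KO livers, against 3950 to 5700 in the 6 WT livers, a log2 fold change of −3.22 ± 0.25 over both tumour states (limma adjusted p = 4.464e-05). All 40 members passed the filter on low values (at least 10 in at least 3 libraries): 39 of them reached 10 in every library, and Sdsl, a relative of serine dehydratase, did so in 10 of 12.

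Otc was lower in livers of tumour-bearing mice, and it was the only member called in any of the 7 comparisons. Between tumour and no tumour, averaged over both genotypes, 1 of 40 members was called, against 1.06% of all genes tested in either direction and 0.449% in the lower direction. At an unadjusted p under 0.05, 4 members were higher and 4 lower (10% each), beside 7.08% and 8.06% of all genes. Without KO_tumor replicate 1 these counts were 0 and 7, without KO_tumor replicate 2 they were 7 and 4, without WT_tumor replicate 2 they were 2 and 6, without KO_no_tumor replicate 1 they were 3 and 2, and without KO_no_tumor replicate 3 they were 1 and 4. In WT livers alone limma called 0 of 40 members for the tumour, against 0.679% of all genes. There 3 members were higher and 1 lower at an unadjusted p under 0.05, beside 4.49% and 4.18% of all genes and 8.67% in either direction. This balance turned to 1 higher and 3 lower without WT_tumor replicate 2 and to 1 and 2 without WT_no_tumor replicate 3, and it was 4 and 0 without WT_tumor replicate 3. Over all 12 omissions the counts in WT lay between 1 and 4 higher and between 0 and 3 lower. In KO livers alone limma called 0 of 40, against 0% of all genes, with 2 higher and 3 lower at an unadjusted p under 0.05, beside 5.13% and 7.58% of all genes and 12.7% in either direction. Over the 12 omissions the counts in KO lay between 1 and 3 higher and between 1 and 4 lower. Over both genotypes 18 of 40 log2 fold changes of the members were positive with a median of −0.05, beside a median of −0.04 over all genes tested. The comparisons of KO with WT and the test of whether the tumour difference depends on genotype are given after the single routes, and several comparisons share libraries, so their values are set side by side only.

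**Figure D1:**
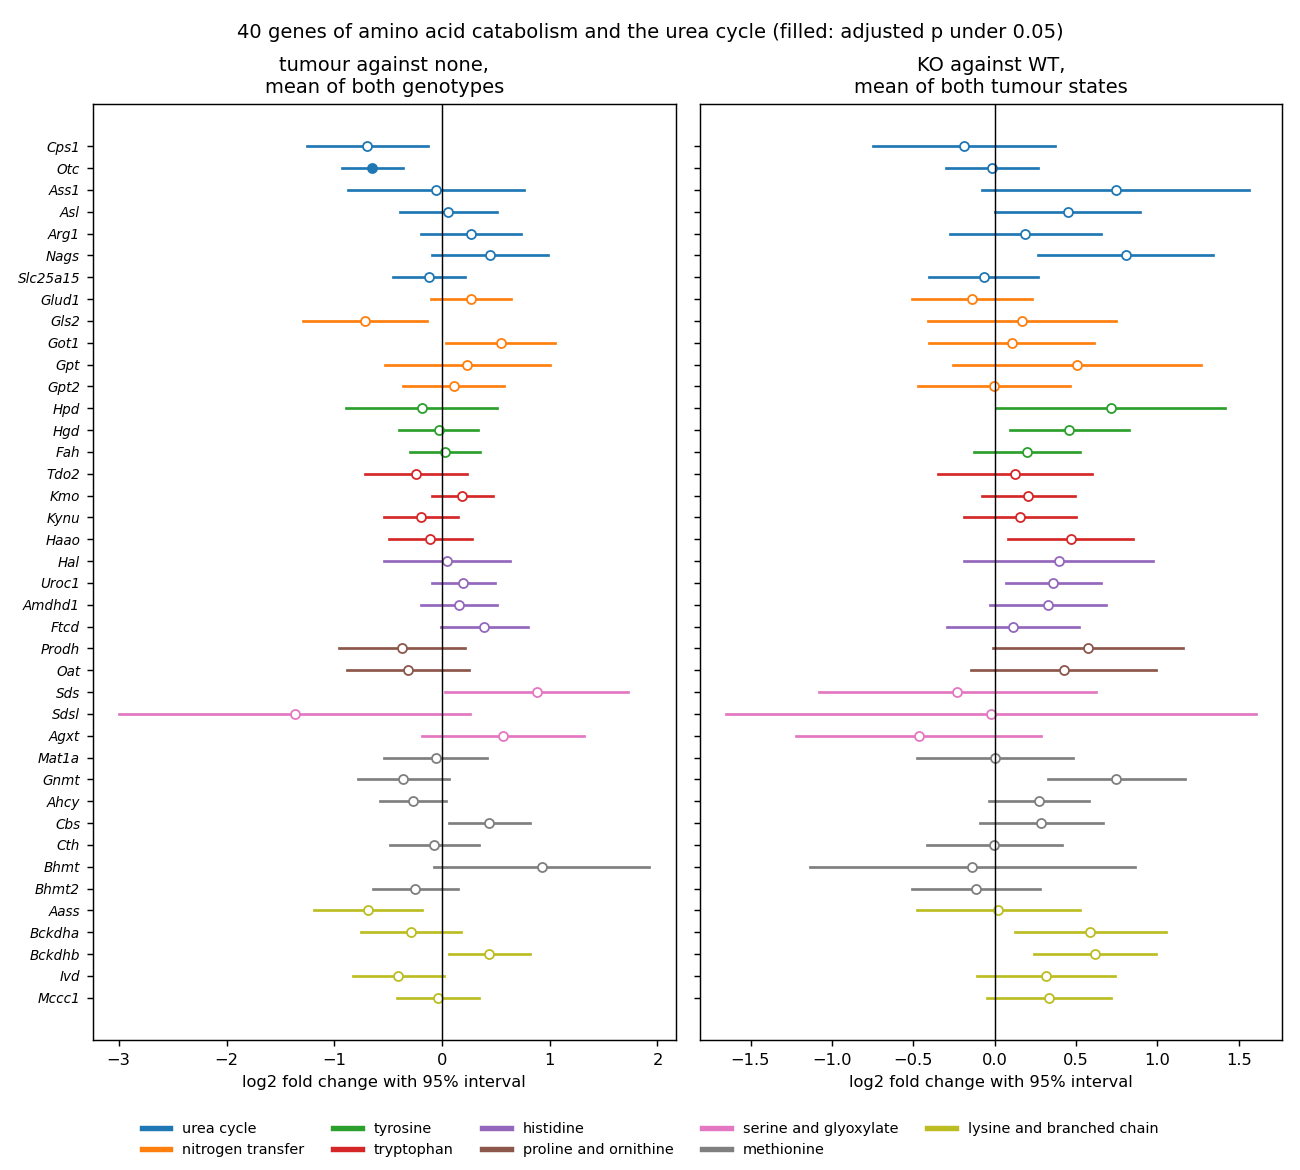
Log2 fold change of each of the 40 members with its 95% interval, for tumour against none averaged over both genotypes (left) and KO against WT averaged over both tumour states (right), coloured by route. The filled point is Otc, at −0.65 with an interval of −0.93 to −0.36. Open points did not pass the adjusted threshold, and the axes of the panels differ.

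Otc (ENSMUSG00000031173, chromosome X, 10118544 to 10187264, plus strand, mm39) encodes ornithine transcarbamylase, which joins carbamoyl phosphate to ornithine and gives citrulline. It had 7020, 8290 and 8700 normalized reads in KO_tumor, 9870, 9810 and 9070 in WT_tumor, 18500, 12800 and 13700 in KO_no_tumor and 13500, 12200 and 12200 in WT_no_tumor. All 6 livers with a tumour lay below all 6 without, and the 3 KO_tumor livers lay below the 3 WT_tumor livers. The means were 8003 ± 878 in KO_tumor, 9585 ± 446 in WT_tumor, 14994 ± 3051 in KO_no_tumor and 12634 ± 781 in WT_no_tumor (SD, n = 3 each). Otc fell by 0.65 ± 0.13 (SE) on the log2 scale with a tumour over both genotypes (limma adjusted p = 0.0344). No other member separated the 6 livers with a tumour from the 6 without in either direction, where 0.909% of all genes tested were lower and 0.748% higher without overlap. The KO_tumor mean was 53.4% of the KO_no_tumor mean, with a log2 fold change of −0.89 ± 0.19 (limma adjusted p = 0.275). The WT_tumor mean was 75.9% of the WT_no_tumor mean, with a log2 fold change of −0.40 ± 0.19 (limma adjusted p = 0.576). The difference between these changes was −0.50 ± 0.26, with a 95% interval of −1.06 to 0.07 (limma adjusted p = 0.859).

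The call of Otc is close to the threshold. Without both libraries that stood apart the log2 fold change was −0.63 ± 0.15 and the call ended (limma adjusted p = 0.0819), as it did without 9 of the 12 libraries taken singly, at adjusted p-values of 0.0577 to 0.0985. The 9 were replicates 1 and 3 of KO_tumor, WT_tumor and KO_no_tumor and all 3 of WT_no_tumor. Over those 12 omissions the log2 fold change stayed between −0.70 and −0.57. In RNA of a whole liver, fewer cells of a type and less RNA per cell cannot be told apart.

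The sequence upstream of Otc is shown because this member carries the called difference. It runs from 250 bases before to 50 bases after the start of the gene in RefSeq, on build GRCm38.p6, which is not the build of the deposited coordinates. Capitals mark a match to an HNF4-type motif, AAAGTCCA or AAAGTTCA on either strand, named after a nuclear receptor known for liver-specific transcription.

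Otc (chrX:10252055-10252354, plus strand): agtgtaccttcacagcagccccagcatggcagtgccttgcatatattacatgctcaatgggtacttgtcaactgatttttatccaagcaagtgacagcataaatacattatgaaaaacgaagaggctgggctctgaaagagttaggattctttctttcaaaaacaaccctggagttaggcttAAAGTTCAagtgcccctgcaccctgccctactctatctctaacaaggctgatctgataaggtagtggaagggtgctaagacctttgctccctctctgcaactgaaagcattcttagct

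Such a motif was present in 3 of 32 member promoters (9.38%), those of Otc, Hgd and Ftcd, and in 2.42% of all 32851 promoters of the same length. A C/EBP-type motif (TTGCNNAA, either strand) was present in 9.38% of member promoters and 10.8% of all, a STAT-type motif (TTCNNNGAA, either strand) in 6.25% and 8.3%, and the cyclic AMP response element (TGACGTCA) in 0% and 1.79%. The 32 promoters belong to the 30 members that matched the RefSeq table by symbol. A match of letters is a description of this window and says nothing of binding in these livers.

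Some markers of inflammation and of other cell types also differed between livers with and without a tumour. Over both genotypes 0.616% of all genes tested were called higher and 0.449% lower. At an unadjusted p under 0.05 these shares were 7.08% and 8.06%. Of 18 acute phase genes, most of them encoding plasma proteins that hepatocytes make in inflammation, 14 rose with a tumour over both genotypes by the limma threshold, and their summed level was 215000 to 387000 in KO_tumor and 444000 to 554000 in WT_tumor, against 167000 to 229000 in KO_no_tumor and 160000 to 188000 in WT_no_tumor. The sum of 16 neutrophil markers was 271 to 2240 in KO_tumor and 2340 to 8820 in WT_tumor, against 245 to 810 in KO_no_tumor and 102 to 474 in WT_no_tumor. Of the 10 neutrophil markers tested 1 was called higher, Lcn2, which is also in the acute phase list. Lcn2 had 648, 140 and 1530 normalized reads in KO_tumor and 7220, 1250 and 4570 in WT_tumor, against 77.5, 97.8 and 642 in KO_no_tumor and 48.5, 29.4 and 206 in WT_no_tumor, so it made up a large part of the neutrophil sum. Elane and Camp were at 0 in all KO_tumor livers, Mpo, Camp and Retnlg in all KO_no_tumor livers, and Camp, Retnlg and Clec4e in all WT_no_tumor livers. The 11 stellate cell markers summed to 15200 to 20900 in KO_tumor and 19800 to 23700 in WT_tumor, against 11700 to 13900 in KO_no_tumor and 11400 to 14000 in WT_no_tumor, with 3 of 11 called higher and none at 0 in all livers of a group. The 15 hepatocyte core genes found were all present in every group and summed to 3610000 to 5650000 in KO_tumor and 4310000 to 5090000 in WT_tumor, against 3600000 to 3840000 in KO_no_tumor and 3220000 to 3720000 in WT_no_tumor. Of these, 2 of 15 rose, the fibrinogen genes Fga and Fgb, 0 fell, and 13 were positive, with a median of 0.20. The fibrinogen gene Fgg, which is in the acute phase list, was also called higher, at 1.10 ± 0.20 (limma adjusted p = 0.0223). Endothelial markers were positive in 11 of 11 with 1 called higher, at a sum of 15200 to 21200 in KO_tumor and 14100 to 17500 in WT_tumor, against 10000 to 12700 in KO_no_tumor and 8840 to 12500 in WT_no_tumor. Macrophage markers were positive in 13 of 13 with 0 called by limma and 5 higher at an unadjusted p under 0.05, at a sum of 11000 to 16400 in KO_tumor and 12100 to 19200 in WT_tumor, against 7430 to 14800 in KO_no_tumor and 7000 to 18100 in WT_no_tumor. Of 10 erythroid markers tested 7 were positive and 1 was called higher, at a sum of 3900 to 12900 in KO_tumor and 7480 to 15700 in WT_tumor, against 4000 to 6430 in KO_no_tumor and 3360 to 6790 in WT_no_tumor, with Rhag at 0 in all livers of each group but WT_tumor and Epb42 in all of KO_no_tumor. Of 13 markers of hepatocytes around the central vein, which include the member Oat, 11 were negative, 5 were lower at an unadjusted p under 0.05, 0 were called lower and 1 was called higher. Their sum was 121000 to 209000 in KO_tumor and 87400 to 126000 in WT_tumor, against 141000 to 182000 in KO_no_tumor and 94500 to 163000 in WT_no_tumor. Of 12 tested markers of hepatocytes around the portal vein, which include the members Gls2 and Sds, 8 were positive with a median of 0.09. There 0 were called, and 1 was higher and 1 lower at an unadjusted p under 0.05. Their sum was 2460000 to 3930000 in KO_tumor and 2900000 to 3390000 in WT_tumor, against 2130000 to 2630000 in KO_no_tumor and 2130000 to 2340000 in WT_no_tumor. None of the endothelial, macrophage, central vein and portal vein markers was at 0 in all livers of a group. Positive values were also found in 5 of 11 T and NK cell, 6 of 9 B cell and 4 of 7 cholangiocyte markers tested, with 0 called in each list. In KO alone 6 of 10 neutrophil and 3 of 10 erythroid markers were positive with a tumour, against 10 of 10 for each list in WT alone. The part of the other markers in the difference of Otc was not tested.

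Cps1 (ENSMUSG00000025991, chromosome 1, 67162185 to 67270419), which makes carbamoyl phosphate from ammonia and so opens the cycle, had its lowest levels in KO_tumor. It had 66800, 62100 and 66700 normalized reads in KO_tumor, 144000, 76600 and 89400 in WT_tumor, 225000, 96500 and 129000 in KO_no_tumor and 110000, 141000 and 112000 in WT_no_tumor. The 3 KO_tumor livers lay close together and below every other liver, while WT_tumor overlapped both groups without a tumour. The KO_tumor mean was 43.4% of the KO_no_tumor mean, with a log2 fold change of −1.12 ± 0.37 that was not called (limma adjusted p = 0.329). In WT the change with a tumour was −0.27 ± 0.37, and over both genotypes it was −0.69 ± 0.26 (limma adjusted p = 0.224). Cps1 took 0.213% to 0.728% of a library's signal.

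The 3 later steps of the cycle had no call. Ass1 (ENSMUSG00000076441, chromosome 2, 31360219 to 31410685), which joins citrulline to aspartate, had 20700, 4100 and 4000 normalized reads in KO_tumor, 3530, 5960 and 1550 in WT_tumor, 6380, 4450 and 6060 in KO_no_tumor and 4270, 4760 and 3990 in WT_no_tumor. A single library, KO_tumor replicate 1, stood far above the others. Asl (ENSMUSG00000025533, chromosome 5, 130040099 to 130058089), which splits the product into arginine and fumarate, had 3090, 1710 and 2280 in KO_tumor, 2160, 1220 and 897 in WT_tumor, 1690, 2170 and 1450 in KO_no_tumor and 1670, 1490 and 1690 in WT_no_tumor. Arg1 (ENSMUSG00000019987, chromosome 10, 24791119 to 24803383), arginase, which releases urea, had 13500, 6230 and 7340 in KO_tumor, 9010, 8210 and 6030 in WT_tumor, 8350, 5160 and 8720 in KO_no_tumor and 7240, 7260 and 4530 in WT_no_tumor. The groups of Asl and of Arg1 overlapped in every comparison of a pair. Over both genotypes the log2 fold changes with a tumour were −0.06 ± 0.38 for Ass1, 0.06 ± 0.21 for Asl and 0.27 ± 0.22 for Arg1. The KO_tumor livers were 1.13 ± 0.54 above the WT_tumor livers for Ass1 and 0.78 ± 0.30 above for Asl, neither called (limma adjusted p = 0.357 and 0.266). Without KO_tumor replicate 1 these differences were 0.34 for Ass1 and 0.57 for Asl, and over the 12 omissions they lay between 0.34 and 1.58 for Ass1 and between 0.50 and 1.13 for Asl. For the tumour over both genotypes Ass1 lay between −0.45 and 0.21 over the omissions.

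Nags (ENSMUSG00000048217, chromosome 11, 102036339 to 102040304) makes N-acetylglutamate, the activator that Cps1 needs. It had 1110, 577 and 587 normalized reads in KO_tumor, 270, 580 and 417 in WT_tumor, 487, 560 and 506 in KO_no_tumor and 317, 203 and 432 in WT_no_tumor. Every KO_no_tumor liver lay above every WT_no_tumor liver, and every KO_tumor liver lay above every KO_no_tumor liver. KO was above WT by 0.80 ± 0.25 over both tumour states, which was not called (limma adjusted p = 0.385). Slc25a15 (ENSMUSG00000031482, chromosome 8, 22865567 to 22888614), the carrier of ornithine and citrulline across the mitochondrial membrane, had 6560, 6390 and 5900 in KO_tumor, 8160, 6880 and 6360 in WT_tumor, 10300, 6390 and 5980 in KO_no_tumor and 8760, 6020 and 6920 in WT_no_tumor. Its groups overlapped in every comparison of a pair, and its log2 fold changes lay between −0.23 and 0.04 in those comparisons. Of the 7 urea cycle members, 3 were positive and 4 negative with a tumour over both genotypes, with a median of −0.06.

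**Figure D2:**
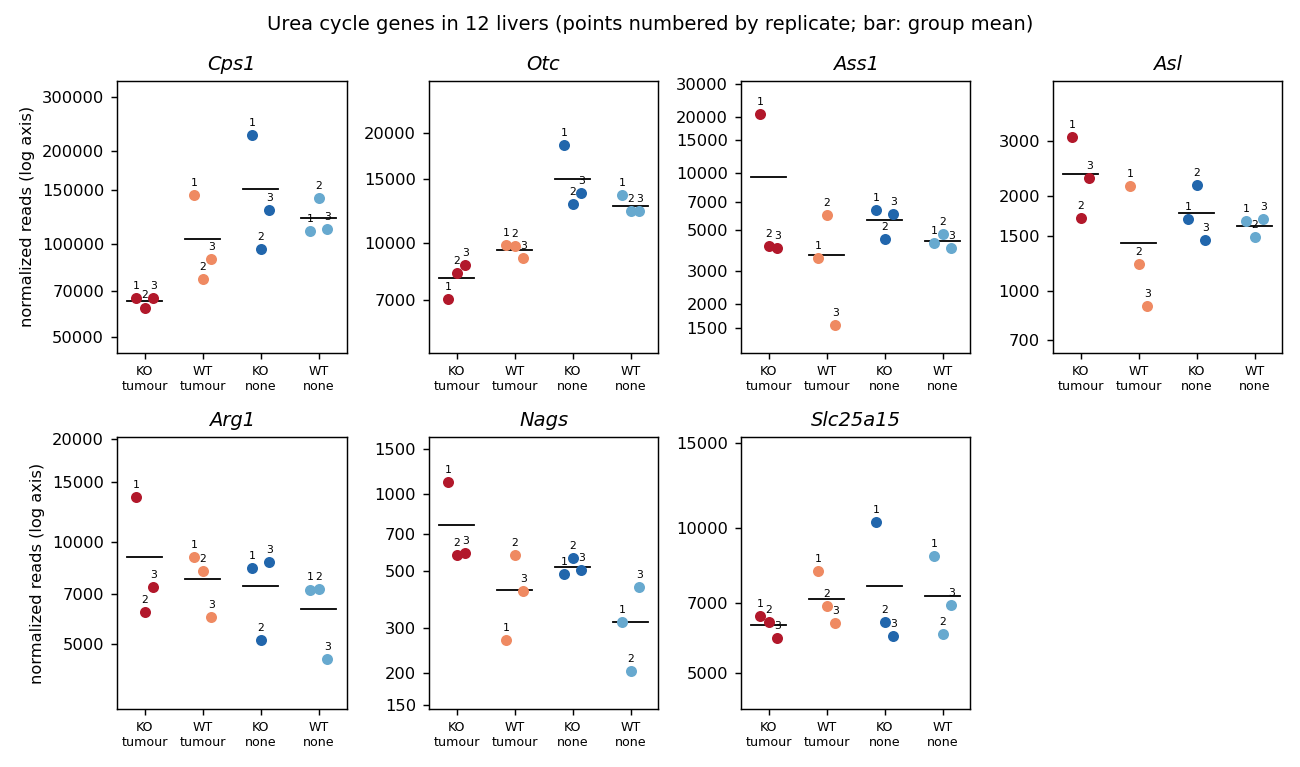
Normalized reads of the 7 urea cycle members in each of the 12 livers on log axes, with a bar at each group mean and points numbered by replicate (KO tumour, WT tumour, KO none, WT none). All 6 livers with a tumour lie below the 6 others for Otc, the 3 KO_tumor livers are the lowest for Cps1, and KO_tumor replicate 1 stands apart at 20700 for Ass1.

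Among the members that move nitrogen between amino acids, Gls2 was low and Got1 high in livers with a tumour, neither called. Gls2 (ENSMUSG00000044005, chromosome 10, 128030326 to 128045874), the liver glutaminase that frees ammonia from glutamine, had 2610, 1550 and 1450 normalized reads in KO_tumor, 1580, 2830 and 1020 in WT_tumor, 5110, 2440 and 2310 in KO_no_tumor and 2570, 3510 and 2040 in WT_no_tumor. Got1 (ENSMUSG00000025190, chromosome 19, 43488191 to 43513045), the cytosolic aspartate aminotransferase, had 1550, 831 and 1080 in KO_tumor, 1690, 1000 and 781 in WT_tumor, 1150, 765 and 597 in KO_no_tumor and 805, 529 and 844 in WT_no_tumor. Livers with and without a tumour overlapped for both genes. Over both genotypes the change with a tumour was −0.72 ± 0.27 for Gls2 (limma adjusted p = 0.22) and 0.55 ± 0.24 for Got1 (limma adjusted p = 0.295). Glud1, glutamate dehydrogenase, ranged from 26100 to 44200 over all livers, and the alanine aminotransferases Gpt and Gpt2 from 174 to 1180 and from 6170 to 16400. For Glud1 the 3 KO_tumor livers lay above the 3 KO_no_tumor livers, at a log2 fold change of 0.25 ± 0.24.

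For tyrosine, Hgd and Hpd tended to higher values in KO, with no call. Hgd (ENSMUSG00000022821, chromosome 16, 37400515 to 37452383), homogentisate dioxygenase, had 6270, 6730 and 6990 normalized reads in KO_tumor, 5040, 5820 and 3340 in WT_tumor, 7570, 7600 and 4700 in KO_no_tumor and 5260, 4020 and 5710 in WT_no_tumor. Every KO_tumor liver lay above every WT_tumor liver, and the groups without a tumour overlapped. Hpd (ENSMUSG00000029445, chromosome 5, 123309870 to 123320791), which makes homogentisate, had 5940, 1260 and 2860 in KO_tumor, 1970, 1910 and 779 in WT_tumor, 2490, 2200 and 3490 in KO_no_tumor and 2250, 2200 and 1460 in WT_no_tumor. KO against WT over both tumour states was 0.46 ± 0.17 for Hgd (limma adjusted p = 0.422) and 0.71 ± 0.33 for Hpd (limma adjusted p = 0.481). Fah, fumarylacetoacetase and the last enzyme of the route, ranged from 2340 to 3980 with a value of 0.20 ± 0.15 in the same comparison.

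None of the 4 tryptophan members was called. Haao (ENSMUSG00000000673, chromosome 17, 84138585 to 84155393), 3-hydroxyanthranilate dioxygenase, had 3090, 2180 and 1970 normalized reads in KO_tumor, 1720, 1660 and 1280 in WT_tumor, 2640, 1710 and 2680 in KO_no_tumor and 2350, 1370 and 1960 in WT_no_tumor. All KO_tumor livers lay above all WT_tumor livers, at 0.62 ± 0.25 (limma adjusted p = 0.301). Kmo (ENSMUSG00000039783, chromosome 1, 175447947 to 175489683), kynurenine monooxygenase, had 4070, 3100 and 3340 in KO_tumor, 3300, 3020 and 3040 in WT_tumor, 3550, 2600 and 3400 in KO_no_tumor and 3100, 2680 and 2220 in WT_no_tumor. Tdo2, which opens the tryptophan ring and sets the pace of the route, ranged from 25100 to 54200, and Kynu, kynureninase, from 2850 to 5050. With a tumour over both genotypes the changes were −0.24 ± 0.22 for Tdo2, −0.19 ± 0.16 for Kynu, −0.11 ± 0.18 for Haao and 0.19 ± 0.13 for Kmo.

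All 4 histidine members had higher fitted values in KO than in WT, both with and without a tumour, and none was called. Uroc1 (ENSMUSG00000034456, chromosome 6, 90310266 to 90341534), urocanase, had 6910, 4170 and 5030 normalized reads in KO_tumor, 3230, 4030 and 3680 in WT_tumor, 4000, 4400 and 3800 in KO_no_tumor and 3720, 3700 and 3300 in WT_no_tumor. In both tumour states each KO liver was above each WT liver for this gene. Amdhd1 (ENSMUSG00000015890, chromosome 10, 93359200 to 93375896), which follows urocanase in the route, had 3390, 2840 and 2150 in KO_tumor, 1550, 2740 and 1600 in WT_tumor, 2120, 2000 and 2280 in KO_no_tumor and 1870, 2250 and 1800 in WT_no_tumor, with overlap in both tumour states. With a tumour, KO lay above WT by 0.53 ± 0.19 for Uroc1 (limma adjusted p = 0.253) and by 0.53 ± 0.23 for Amdhd1 (limma adjusted p = 0.327). Hal, histidase, the first enzyme, was at 0.58 ± 0.38 and Ftcd, the last, at 0.04 ± 0.27. The median of these 4 values was 0.53, and without KO_tumor replicate 1 it was 0.28 with 3 of 4 positive.

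Prodh and Oat, of proline and ornithine breakdown, were negative with a tumour and positive in KO, with wide errors. Prodh (ENSMUSG00000003526, chromosome 16, 17878221 to 17908068), proline dehydrogenase, had 861, 621 and 785 normalized reads in KO_tumor, 759, 431 and 392 in WT_tumor, 1200, 843 and 900 in KO_no_tumor and 1090, 316 and 795 in WT_no_tumor. Oat (ENSMUSG00000030934, chromosome 7, 132159207 to 132178128), ornithine aminotransferase, had 2800, 1500 and 2970 in KO_tumor, 1910, 1690 and 1670 in WT_tumor, 5060, 2080 and 2370 in KO_no_tumor and 3680, 1820 and 1490 in WT_no_tumor. Groups overlapped for both genes in every comparison of a pair. Tumour against none over both genotypes gave −0.37 ± 0.27 for Prodh and −0.32 ± 0.26 for Oat, and KO against WT over both tumour states gave 0.57 ± 0.27 and 0.42 ± 0.26, in the same order of genes.

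Sds and Agxt had higher fitted values with a tumour in WT livers, with no call. Sds (ENSMUSG00000029597, chromosome 5, 120614591 to 120621998), serine dehydratase, which feeds serine into glucose synthesis, had 1080, 251 and 560 normalized reads in KO_tumor, 1280, 1360 and 591 in WT_tumor, 818, 267 and 470 in KO_no_tumor and 334, 625 and 187 in WT_no_tumor. WT_tumor replicate 3 lay within the range of WT_no_tumor. Agxt (ENSMUSG00000026272, chromosome 1, 93062962 to 93073144), the alanine-glyoxylate aminotransferase, had 745, 135 and 454 in KO_tumor, 701, 1190 and 568 in WT_tumor, 286, 429 and 449 in KO_no_tumor and 280, 461 and 290 in WT_no_tumor. All WT_tumor livers were above all WT_no_tumor livers for Agxt, whereas KO_tumor spanned the whole of KO_no_tumor. The change with a tumour in WT was 1.57 ± 0.56 for Sds (limma adjusted p = 0.356) and 1.22 ± 0.50 for Agxt (limma adjusted p = 0.469). In KO it was 0.19 ± 0.56 for Sds and −0.09 ± 0.50 for Agxt. The difference between genotypes was −1.38 ± 0.79 for Sds and −1.31 ± 0.70 for Agxt, both with a limma adjusted p of 0.859. Plbd2, on the opposite strand, had 66.1% to 352% of the value of Sds. It shares 18.5% of the 50-base stretches of Sds, so reads from that part may belong to either gene.

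In the methionine cycle and the routes out of it, Gnmt was high in KO livers and, within KO, Cbs was high with a tumour, neither called. Gnmt (ENSMUSG00000002769, chromosome 17, 47036590 to 47040095), glycine N-methyltransferase, which disposes of surplus S-adenosylmethionine, had 8400, 4640 and 6560 normalized reads in KO_tumor, 3950, 3610 and 3530 in WT_tumor, 8200, 9600 and 6380 in KO_no_tumor and 5580, 3100 and 6580 in WT_no_tumor. KO_tumor lay wholly above WT_tumor, and without a tumour the groups overlapped between 6380 and 6580. KO against WT was 0.78 ± 0.28 with a tumour (limma adjusted p = 0.248), 0.71 ± 0.28 without (limma adjusted p = 1) and 0.75 ± 0.20 over both states (limma adjusted p = 0.352). Cbs (ENSMUSG00000024039, chromosome 17, 31827868 to 31856213), cystathionine beta-synthase, had 4980, 3010 and 3120 in KO_tumor, 2570, 3570 and 2000 in WT_tumor, 2680, 2420 and 2060 in KO_no_tumor and 2240, 1800 and 2550 in WT_no_tumor. Its KO_tumor livers lay above its KO_no_tumor livers, at 0.60 ± 0.25 (limma adjusted p = 0.37), and this change lay between 0.37 and 0.73 over the 12 omissions. In WT the groups of Cbs overlapped, with a WT_tumor mean at 124% of the WT_no_tumor mean. Bhmt, which remakes methionine from betaine, had the widest spread of this route, 1540 to 16400, with 0.93 ± 0.47 for the tumour over both genotypes (limma adjusted p = 0.371). The others ranged from 47700 to 90300 for Mat1a, which makes S-adenosylmethionine, from 11100 to 19200 for Ahcy, which splits S-adenosylhomocysteine, from 3360 to 6430 for Cth, which makes cysteine, and from 1780 to 3670 for Bhmt2.

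The 3 smallest p-values of members for KO against WT in livers with a tumour were those of Bckdhb, Bckdha and Mccc1, all of branched-chain breakdown. Bckdha and Bckdhb encode the alpha and beta subunits of the E1 component of the branched-chain ketoacid dehydrogenase, the complex that commits leucine, isoleucine and valine to breakdown. Bckdhb (ENSMUSG00000032263, chromosome 9, 83807198 to 84006294) had 1250, 773 and 1140 normalized reads in KO_tumor, 458, 637 and 475 in WT_tumor, 472, 680 and 622 in KO_no_tumor and 551, 467 and 475 in WT_no_tumor. Bckdha (ENSMUSG00000060376, chromosome 7, 25329371 to 25358407) had 1920, 955 and 1380 in KO_tumor, 724, 880 and 581 in WT_tumor, 1510, 964 and 1580 in KO_no_tumor and 1570, 1070 and 816 in WT_no_tumor. The KO_tumor livers were above the WT_tumor livers without overlap for both subunits, and for Bckdhb they were above all other livers. The KO_tumor means were 201% of the WT_tumor mean for Bckdhb and 195% for Bckdha. In log2 the differences were 0.99 ± 0.25 for Bckdhb (95% interval 0.46 to 1.52, limma adjusted p = 0.151) and 0.93 ± 0.31 for Bckdha (0.27 to 1.58, limma adjusted p = 0.226), so neither was called. Without a tumour KO against WT was 0.24 ± 0.25 for Bckdhb and 0.25 ± 0.31 for Bckdha, and the interaction was 0.76 ± 0.35 and 0.68 ± 0.43, both with a limma adjusted p of 0.859. With weights for each library, both passed the threshold with a tumour (limma adjusted p = 0.00391 and 0.0313), in a setting that gave KO_tumor replicate 1 a weight of 0.142 and replicate 3 of that group 3.79.

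Mccc1, a subunit of the carboxylase in leucine breakdown that falls outside the naming rule and is given because it shares this pattern, had 767, 622 and 848 in KO_tumor, against 452, 449 and 407 in WT_tumor. Its log2 difference was 0.76 ± 0.25 (limma adjusted p = 0.226). Ivd, isovaleryl-CoA dehydrogenase of the same route, stood at 0.47 ± 0.28. Aass, which starts lysine breakdown, ranged from 1350 to 4350, and its change with a tumour over both genotypes was −0.68 ± 0.23 (limma adjusted p = 0.178). Its KO_tumor mean was 84% of its WT_tumor mean.

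The upstream sequences of both E1 subunits are shown for comparison with that of Otc, on the same build and window, in lower case throughout because none of the 4 motifs searched was found in them. Bckdhb has a further RefSeq entry downstream of the start used, which is not shown and also held none of the 4 motifs. They differ in base composition, with 48% G or C for Bckdha and 65% for Bckdhb, against 44.3% for Otc.

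Bckdhb (chr9:83924887-83925186, plus strand): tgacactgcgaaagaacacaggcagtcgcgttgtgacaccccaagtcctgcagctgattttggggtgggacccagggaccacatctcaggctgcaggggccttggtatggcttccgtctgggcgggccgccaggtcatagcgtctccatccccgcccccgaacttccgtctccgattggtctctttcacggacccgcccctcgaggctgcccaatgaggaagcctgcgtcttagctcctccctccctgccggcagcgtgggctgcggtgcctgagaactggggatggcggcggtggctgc

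Bckdha (chr7:25658712-25659011, minus strand): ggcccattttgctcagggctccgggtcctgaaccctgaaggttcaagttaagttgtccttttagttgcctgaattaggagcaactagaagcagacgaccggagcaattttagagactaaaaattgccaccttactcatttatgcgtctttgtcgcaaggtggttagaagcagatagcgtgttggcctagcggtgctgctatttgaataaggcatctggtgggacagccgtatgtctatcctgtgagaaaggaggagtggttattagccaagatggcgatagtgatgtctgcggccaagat

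**Figure D3:**
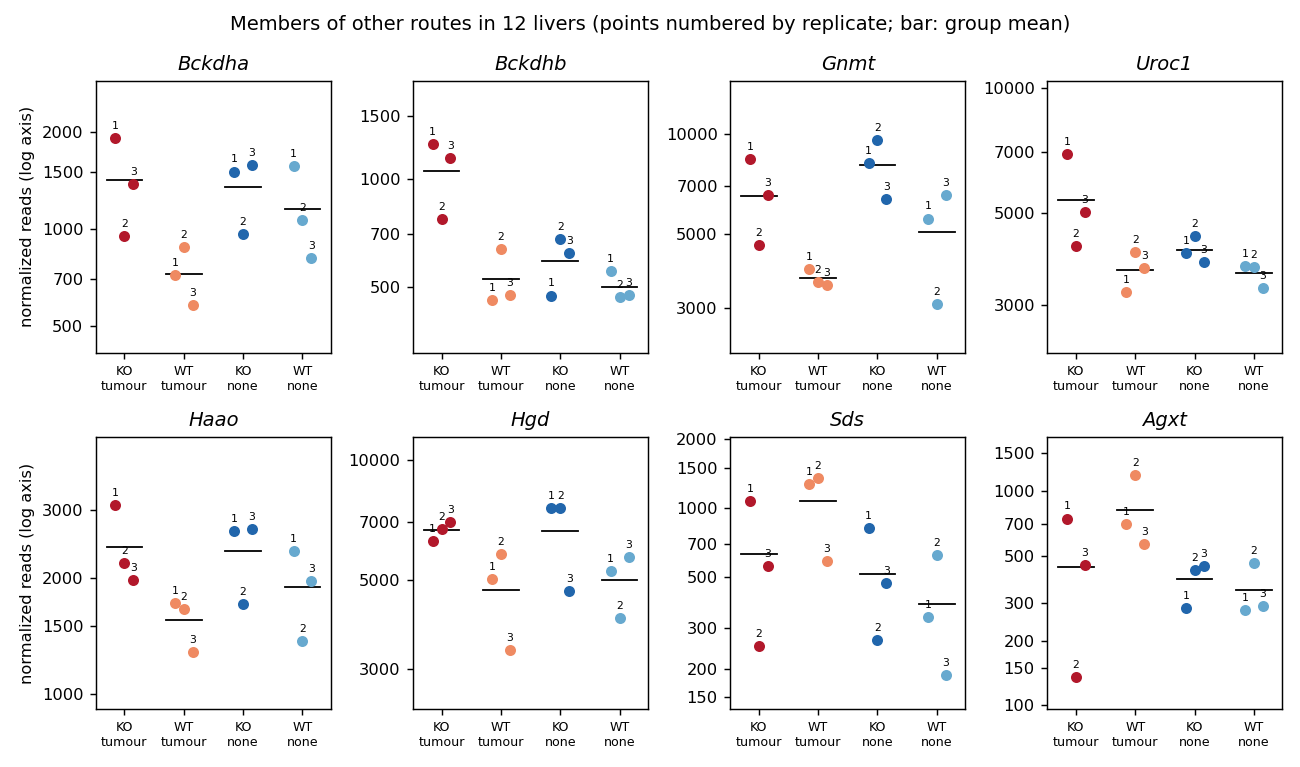
Normalized reads of 8 members of other routes in each of the 12 livers on log axes, with a bar at each group mean and points numbered by replicate. The KO_tumor livers lie above the WT_tumor livers without overlap for Bckdha, Bckdhb, Gnmt, Uroc1, Haao and Hgd, while Sds and Agxt are high in WT_tumor.

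Between KO and WT livers most fitted values of the members were positive, that is, higher in KO, and none was called. With a tumour limma called 0 of 40 members, against 0.023% of all genes tested, and 28 of 40 were positive with a median of 0.17, beside −0.12 over all genes. Counting unadjusted p-values under 0.05, 10 members were higher (25%) and 1 lower (2.5%), beside 6.31% and 8.13% of all genes. Groups did not overlap for 7 members that were higher in KO (17.5%, beside 8.11% of all genes) and for 2 that were lower, Cps1 and Otc (5%, beside 9.8%). Without KO_tumor replicate 1 the unadjusted counts were 3 higher and 2 lower, beside 4.46% and 4.68% of all genes, and without WT_tumor replicate 3 they were 5 and 1. Leaving out WT_tumor replicate 2 gave 14 higher and 0 lower. The median of 0.17 was 0.41 without KO_tumor replicate 2, 0.34 without WT_tumor replicate 2 and 0.31 without WT_tumor replicate 1, and its lowest was 0.13, without KO_tumor replicate 1. In that omission the median over all genes was −0.0018, and 23 of 40 members were positive. Without WT_tumor replicate 3, 22 of 40 were positive.

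Without a tumour limma called 0 of 40 members between KO and WT, against 0.00575% of all genes, and 36 of 40 fitted values were positive with a median of 0.22, beside −0.01 over all genes. Several other lists were mostly positive here too, with 14 of 15 hepatocyte core genes (median 0.24), 13 of 13 central vein markers (0.34) and 16 of 18 acute phase genes (0.41) above 0. So were 8 of 12 portal vein (0.21), 11 of 13 macrophage (0.19), 9 of 10 erythroid (0.57) and 9 of 9 B cell markers (1.67). The endothelial, stellate and T and NK cell lists each had 5 of 11 markers above 0, and the cholangiocyte list 3 of 7. Counting unadjusted p-values under 0.05, Nags and Gnmt were higher (2 members, 5%, beside 0.978% of all genes) and 0 lower (beside 0.955%, and 1.93% in either direction). Groups did not overlap for Nags, Uroc1, Ftcd and Ahcy, all higher in KO (10%, beside 3.56% of all genes), and for 0 members lower (beside 4.37%). Without KO_no_tumor replicate 1 the median was 0.12 with 32 of 40 positive, without WT_no_tumor replicate 3 it was 0.13 with 33 positive, and without KO_no_tumor replicate 1 or WT_no_tumor replicate 2 the unadjusted count was 0, while without WT_no_tumor replicate 1 it was 4. Averaged over both tumour states limma called 0 of 40, against 0.0115% of all genes, with 8 higher and 0 lower at an unadjusted p under 0.05, beside 4.86% and 5.43%, or 10.3% in either direction. The higher count was 5 without KO_tumor replicate 1 or WT_tumor replicate 3, 14 without KO_tumor replicate 2 and 13 without WT_tumor replicate 2. The genotype by tumour interaction gave 0 of 40 called, against 0% of all genes, with 2 positive (Bckdhb and Mccc1) and 0 negative at an unadjusted p under 0.05, beside 1.96% and 2.74%, or 4.7% in either direction. The positive count was 0 without KO_tumor replicate 3, WT_tumor replicate 3, KO_no_tumor replicate 1 or 3, or WT_no_tumor replicate 1. Without KO_tumor replicate 1 there were 1 positive and 2 negative at that p, and 14 of 40 fitted values were positive.

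Among the tumour comparisons, Ftcd and Agxt were higher without overlap in WT (5%, beside 9.46% of all genes) and Otc, Ahcy and Mccc1 were lower (7.5%, beside 8.05%). In KO, Nags, Glud1, Cbs and Bckdhb were higher (10%, beside 7.34%) and Cps1, Otc and Bhmt2 lower (7.5%, beside 9.48%). These shares are close to those of all genes. The median of the members for the tumour in KO was 0.05, and it was −0.17 without KO_tumor replicate 1 and −0.28 without both libraries that stood apart.

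Single livers held many of the extreme values. KO_tumor replicate 1 held the highest value of 17 of 40 members, and it held the highest value of 24% and the lowest of 39.3% of all genes tested, the lowest of 3 members among them. WT_tumor replicate 3 held the lowest value of 12 members, beside 8.29% of all genes, and KO_no_tumor replicate 1 the highest of 11, beside 7.22%. The members together took 1.05% to 1.82% of a library's signal, with the highest share in KO_no_tumor replicate 1. The ratio of the highest to the lowest liver was 1.69 for Glud1, the narrowest, 10.7 for Bhmt, 13.4 for Ass1 and 57.9 for Sdsl, whose lowest value was 1.11.

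**Figure D4:**
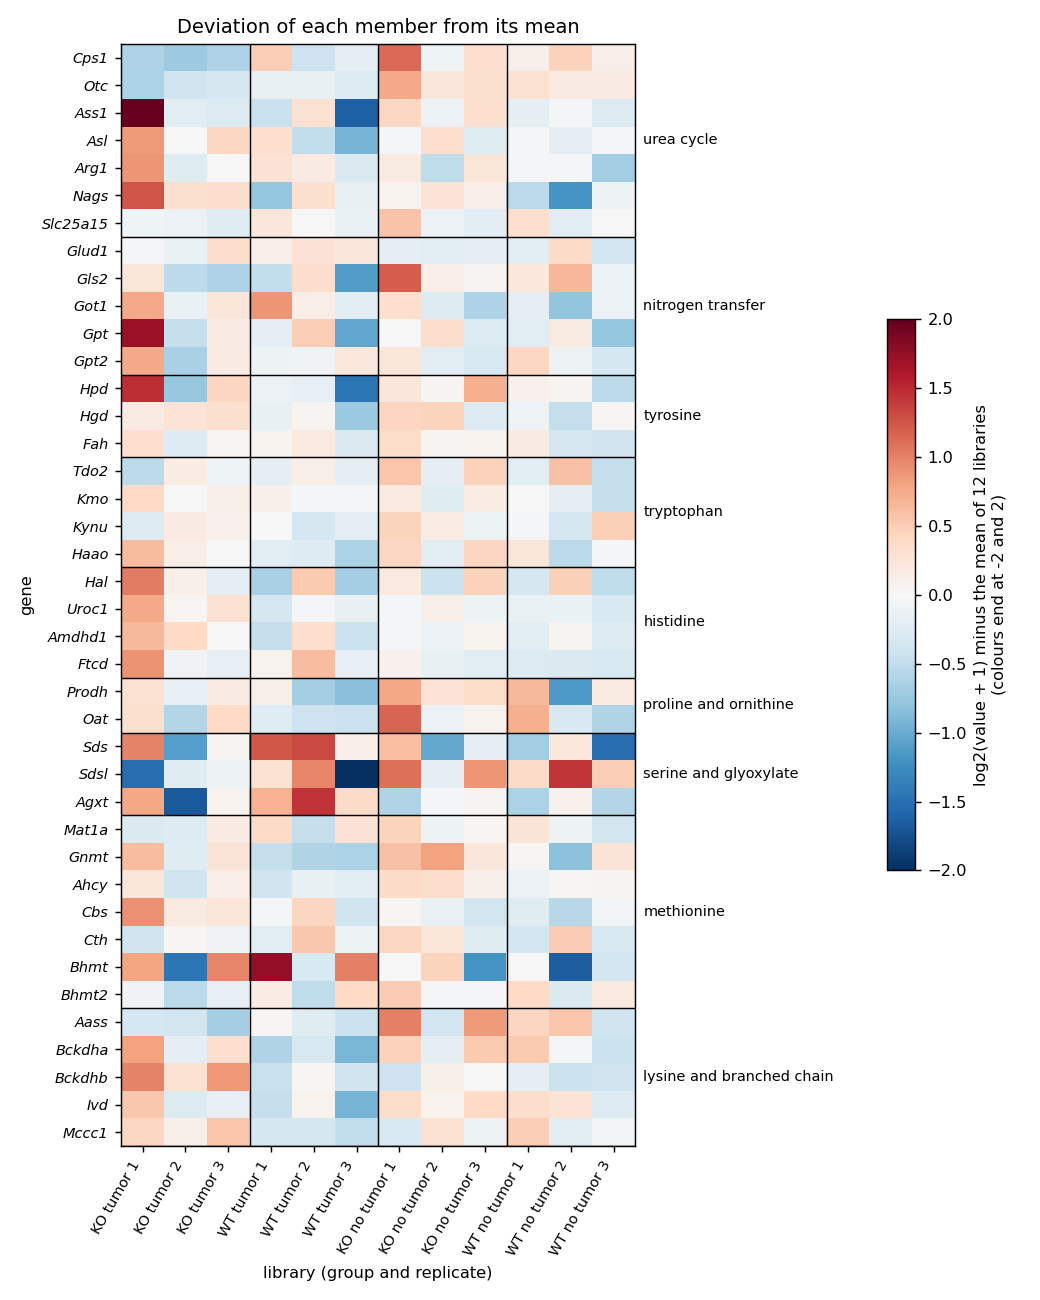
Deviation of each member (rows, grouped by route) from its mean over 12 livers in log2(value + 1), by library (columns), with colours ending at −2 and 2. Otc and Cps1 are below their means in all 3 KO_tumor livers, while KO_tumor replicate 1 is high for much of the rest and WT_tumor replicate 3 low for many.

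Divided by the joint length of all annotated exons of each gene, the levels of the members could be compared roughly with each other. That length ran from 1206 bases for Gnmt to 10952 for Mccc1. It counts exons of every annotated transcript and can exceed the RNA made in liver, so such genes are placed too low. Mat1a and Cps1 were the highest, with medians over the 12 livers of 18800 and 18600 normalized reads per kilobase, and their ranges of 13800 to 26000 and 11200 to 40500 overlapped. Tdo2 (median 8540), Glud1 (7580), Ahcy (5370) and Gnmt (4960) followed, each overlapping the next, and then Arg1 (3280) and Otc (2600). Nags, at a median of 175 normalized reads per kilobase, lay far below the enzyme it activates. Mccc1 (49.7) and Sdsl (19.8) were the lowest. Lengths came from an annotation of another build, and reads that sequence shared with other genes can claim are uncertain for 8 members with over 5% of their 50-base stretches found elsewhere. The largest such shares were 68.7% for Ahcy, shared mostly with Gm4737, 49.6% for Bckdha with B3gnt8 on the opposite strand, and 38.6% for Ass1 with Gm5424. Gm4737 is not among the gene names of the deposited table, so its level could not be compared with that of Ahcy. B3gnt8 held at most 5.64% of the value of Bckdha and Gm5424 at most 0.186% of that of Ass1.

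Outside the 40 members, 58 tested genes of other amino acid breakdown were compared in the same fit. With a tumour over both genotypes 0 rose and 1 fell, beside 0.616% and 0.449% of all genes, and the median was −0.05. The gene that fell was Acadsb, a dehydrogenase of isoleucine breakdown. Acadsb had 2760, 2900 and 2900 normalized reads in KO_tumor and 3200, 3370 and 3690 in WT_tumor, against 5660, 4450 and 4610 in KO_no_tumor and 4720, 6280 and 4480 in WT_no_tumor. All livers with a tumour lay below all livers without, and Acadsb fell by 0.68 ± 0.12 on the log2 scale (limma adjusted p = 0.0205). That call ended without KO_tumor replicate 3, WT_tumor replicate 1 or KO_no_tumor replicate 1, at an adjusted p of up to 0.0731, and also without both libraries that stood apart and on rescaling to the same total (up to 0.0505). Tat, tyrosine aminotransferase, was at −0.36 ± 0.45 (limma adjusted p = 0.737). For KO against WT with a tumour 45 of the 58 were positive with a median of 0.45, and 0 were called. At an unadjusted p under 0.05, 19 were higher (32.8%) and 2 lower (3.45%), beside 6.31% and 8.13% of all genes. Without KO_tumor replicate 1 there were 43 positive, a median of 0.27, and 12 higher and 0 lower, beside 4.46% and 4.68% of all genes.

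Of 21 amino acid carriers, Slc16a10, which exports aromatic amino acids, and Slc1a4, a carrier of alanine and serine, were called with a tumour over both genotypes. The share of all genes called there was 1.06%. Slc16a10 had 2310, 3060 and 2870 normalized reads in KO_tumor and 3050, 2240 and 2370 in WT_tumor, against 7140, 4800 and 6730 in KO_no_tumor and 6290, 5120 and 4240 in WT_no_tumor. It fell by 1.10 ± 0.15 on the log2 scale (limma adjusted p = 0.00411), the 6 livers with a tumour lay below the 6 without, and the call held in all 12 omissions of a library, with an adjusted p of up to 0.0208. Slc1a4 rose by 1.31 ± 0.29 (limma adjusted p = 0.0489), a call that ended in 10 of 12 omissions, all but those of KO_tumor replicate 1 and KO_no_tumor replicate 2, at an adjusted p of up to 0.147. It ended as well on rescaling to the same total, with quantile normalization and with a replicate block (up to 0.0656). In WT alone both carriers were called too, Slc1a4 at 1.98 and Slc16a10 at −1.03 (limma adjusted p = 0.0448 each), calls that ended in 8 and 10 of 12 omissions.

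Of 23 genes of amino acid synthesis and other targets of the stress factor ATF4, 20 were positive with a tumour over both genotypes (median 0.88). By the limma threshold 3 rose and 0 fell, beside 0.616% and 0.449% of all genes. Chac1, which breaks down glutathione, rose by 3.80 ± 0.79 (limma adjusted p = 0.0387), Psat1, of serine synthesis, by 1.99 ± 0.44 (limma adjusted p = 0.0436), and Aldh18a1, of proline synthesis, by 2.10 ± 0.44 (limma adjusted p = 0.0402). Chac1 had 126, 33.2 and 162 normalized reads in KO_tumor and 263, 155 and 340 in WT_tumor, against 1.89, 30.1 and 1.32 in KO_no_tumor and 3.39, 54.7 and 25.6 in WT_no_tumor. Livers with and without a tumour overlapped for Chac1. The calls of Chac1, Psat1 and Aldh18a1 ended in 8, 9 and 9 of the 12 omissions, without both libraries that stood apart and with a replicate block. All 3 calls ended without KO_tumor replicate 3, WT_tumor replicates 2 and 3, KO_no_tumor replicates 1 and 3 and WT_no_tumor replicates 1 and 3. Beyond these, Chac1 and Aldh18a1 lost the call without WT_tumor replicate 1, Aldh18a1 without WT_no_tumor replicate 2, and Psat1 without KO_tumor replicate 1 or KO_no_tumor replicate 2. The highest adjusted p was 0.106 for Chac1, 0.135 for Psat1 and 0.104 for Aldh18a1. In WT alone 1 gene of this list was called, Vldlr, a lipoprotein receptor induced by ATF4, which fell by 1.88 ± 0.39 (limma adjusted p = 0.0448). Vldlr had 168, 442 and 589 normalized reads in WT_tumor, against 1610, 1590 and 861 in WT_no_tumor, and the call ended in 9 of 12 omissions, at an adjusted p of up to 0.221, on rescaling to the same total, with a replicate block and with the groups compared alone. The call held without KO_tumor replicate 1 or 2 or WT_no_tumor replicate 3. In KO the change of Vldlr with a tumour was −0.24 ± 0.39, and its interaction was not called (limma adjusted p = 0.859). Of 15 regulators of amino acid catabolism, Onecut1, a liver transcription factor, was called for the tumour in WT, where it fell by 2.20 ± 0.44 (limma adjusted p = 0.0378), a call that ended in 6 of 12 omissions, those of the 3 WT_tumor livers, KO_no_tumor replicate 2 and WT_no_tumor replicates 1 and 2, at an adjusted p of up to 0.182. It ended too on rescaling to the same total, with robust eBayes and with a replicate block (up to 0.06). In KO the change of Onecut1 with a tumour was −0.14 ± 0.44, and its interaction was not called (limma adjusted p = 0.859). Onecut1 had 393, 1380 and 1370 normalized reads in KO_tumor and 668, 756 and 584 in WT_tumor. Without a tumour the values were 1680, 853 and 689 in KO_no_tumor and 3750, 3710 and 2080 in WT_no_tumor.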

How the data were processed

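Total RNA of 12 mouse livers was sequenced after depletion of ribosomal RNA, per the labels. The deposited values are a signal, reads per gene divided by a size factor for each library by the authors with DESeq2, as the deposited table is named. STAR 2.7.8a, Partek, DESeq2 and build mm39 are listed per the submitters' processing notes. How reads were counted, on which annotation release and strand, is not given in the sources used here. Between 78% and 85.1% of low values were whole multiples of the step of 1 read within 0.01 reads, so no count model was used, and depth was estimated as total signal divided by that step.

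Genes with at least 10 in at least 3 libraries (17380 of 22557) entered the tests. The test was limma (version 3.58.1, under R 4.3.3), with eBayes and its trend option, applied to log2(value + 1). A single fit held the 4 group means of all 12 libraries, with no covariate. The 7 comparisons were tumour against none in WT, in KO and averaged, KO against WT with a tumour, without one and averaged, and the interaction. P-values were two-sided, adjusted by Benjamini-Hochberg within a comparison. The median standard error was 0.50 for a pair of groups and 0.35 for averaged comparisons. Intervals cover 95%.

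Values in every library are given for the 7 urea cycle members, any called member and up to 2 further members a route by smallest unadjusted p outside the interaction. Genes of other lists are named where called (at most 6 a list), with Tat and Mtdh; 1 further gene of that rule is not reported here. The members and lists were chosen with earlier results of these data known. Replicates were different mice, per the labels, and are numbered by the sample titles; the deposited columns number KO_no_tumor replicates 2 and 3 as 3 and 4. Libraries with the same number in their titles did not deviate together (correlations from −0.09 to 0.1 over 18 pairs), so no pairing by these numbers was seen. Pairing by the column numbers and shared handling of libraries were not tested. Alternatives were a pseudocount of 10, no filter, rescaling to the same total, quantile normalization, compared groups alone, robust eBayes, library weights, a replicate block and omission of libraries. Promoters came from RefSeq on GRCm38.p6 and exon lengths and shared sequence from GENCODE on GRCm38; they were read with pandas 2.3.3 and numpy 2.4.6 in Python 3.11.15, and figures drawn with matplotlib 3.10.9.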

Additional observations from a re-analysis of the deposited data

How the results depend on the processing

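Alternatives were run for 35 results of named members, chosen because their unadjusted limma p was under 0.05 in the main fit. Of their 719 alternatives 698 kept direction and side of the threshold, 13 lost the call (all Otc), 8 gained one (all with library weights) and 0 turned. Otc over both genotypes was the only result called in the main fit, and it lost the call in 13 of its 20 alternatives. For the others keeping their side meant staying uncalled, and choice by p-value favours a kept direction. The call of Otc ended on rescaling to the same total (−0.57, limma adjusted p = 0.0852), with quantile normalization (−0.46, 0.105) and without both libraries that stood apart (−0.63, 0.0819), leaving 0 members called each time. The cause was not tested. Omitting each library in turn gave 0 to 2 members called in that comparison. Library weights called 2 members there, 1 for the tumour in WT, 6 for KO against WT with a tumour (Nags, Uroc1, Gnmt, Bckdha, Bckdhb and Mccc1) and 1 averaged over tumour states (Bckdhb).

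Counts over all genes moved as well. For the tumour in WT 118 genes were called, 510 with library weights, 211 without both libraries, and 11 to 208 over the omissions (over 1.5 times away without KO_tumor replicate 1, WT_tumor replicate 1 or 3, or any WT_no_tumor liver). For the tumour in KO 0 were called, 14 with weights, 1 with groups alone, and 0 to 1 over the omissions. Averaged over genotypes 185 were called, 856 with weights and 47 to 359 over the omissions (likewise KO_tumor 2 and 3, WT_tumor 1 and 3, KO_no_tumor 1 and 3, WT_no_tumor 1 and 2). KO against WT without a tumour called 1 gene, 2 with weights, and 0 to 1 over the omissions. With a tumour it called 4, 17 with a pseudocount of 10, 16 without a filter, 11 with quantile normalization, 9 with robust eBayes, 1664 with weights, 9 without both libraries, 0 with groups alone, and 2 to 211 over the omissions (211 without WT_tumor 2; likewise KO_tumor 1 and 3, WT_tumor 3, WT_no_tumor 2). Averaged over tumour states it called 2, 139 with weights and 2 to 13 over the omissions. Quantile normalization moved the median of all genes for KO against WT with a tumour from −0.12 to 0.00. The interaction called 0, 1 with weights, and 0 to 1 over the omissions. The median of the members for the tumour in KO was −0.28 without both libraries.

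Replicate numbers are taken as names, since no pairing of the livers by title number was seen. With the number as a replicate block Otc stayed at −0.65 (limma adjusted p = 0.0595), so 0 members were called, the block also ended the calls of Slc1a4, Chac1, Psat1, Aldh18a1, Vldlr and Onecut1, and 13 genes were called for KO against WT with a tumour.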
